A study of Mus musculus with 6 samples.

Results

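The clustered protocadherins are cell-surface proteins of the cadherin superfamily whose genes lie in tandem alpha, beta and gamma clusters on mouse chromosome 18. They were followed here as every gene of the array with a symbol starting with Pcdha, Pcdhb or Pcdhg, taken from probe sets that the array annotation gives exactly 1 symbol. This rule, which used no measured value, found 57 of the 20416 genes on the array, read by 143 of its 241419 probe sets. The alpha cluster gave 14 genes (20 probe sets), the beta cluster 22 (81 probe sets) and the gamma cluster 21 (42 probe sets). The reference gene table lists 58 such genes, and Pcdhgb5 was the 1 of them not measured.

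Each clustered protocadherin binds the same isoform on a neighbouring cell, and neurons choose small sets of isoforms that act as a surface identity for self-recognition. In the alpha and gamma clusters, each variable exon has its own promoter, encodes the extracellular part, and is spliced to constant exons shared by the whole cluster; the beta genes are single coding exons with no constant exons. Promoter choice depends on the insulator protein CTCF, on cohesin loops to distant enhancers and on promoter DNA methylation, while the C-type isoforms at the ends of the alpha and gamma clusters are controlled differently from the others. Beta cells of the pancreas are endocrine cells that share part of the neuronal gene programme.

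The cells were MIN6-4N, an established line from a mouse tumour of insulin-producing beta cells. Both groups were nucleofected with a pcDNA3.1 plasmid, selected with G418 and grown in G418 afterwards; the control plasmid was empty and the other carried mouse Meg3, a maternally expressed imprinted long non-coding RNA. Each group consisted of 3 cultures of 1 clone, so effects of the plasmid and any other difference between these clones cannot be told apart, and each p-value reflects only how far cultures of the same clone varied. The labels' descriptions also mention a sorted subpopulation of cells, which no protocol describes. The deposited values are RMA log2 intensities of an Affymetrix array. A gene's level is the mean of its probe sets, and a difference is always the Meg3 clone minus the vector clone, tested with limma over all genes. Since levels of different genes come from different probes, they were only compared with a background, without a test. Brightness served to choose which members to name and is no measure of RNA amount between genes.

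Array medians over all probe sets lay between 7.02 and 7.19, and correlations between arrays over genes between 0.968 and 0.997. Vector culture 2 and Meg3 culture 1 stood apart, since their probe sets scattered around the median of the remaining arrays with an SD of 0.85 and 0.63, where the other 4 arrays had 0.42 to 0.48. The transfected gene, Meg3, was higher by 1.72 in the clone that carried it (SE 0.19, adjusted p = 0.00756 by limma), at 5.84 ± 0.19 for vector and 7.56 ± 0.34 for Meg3 cultures (SD, n = 3 each). All 8 beta cell markers were above background in both clones, and so was glucagon (Gcg), the hormone of alpha cells, at 12.82 and 12.66. The neuron markers Tubb3, Map2 (Mtap2 on the array) and Snap25 were also above background, 3 of 3, as were 1 of 3 markers of Schwann cells and glia, 0 of 2 of endothelium, 1 of 3 of leukocytes, 1 of 2 of ducts, 2 of 3 of acini, 2 of 3 of fibroblasts and 2 of 3 of delta and PP cells. No marker was called different between the clones, with an unadjusted p under 0.05 for 1 beta cell marker and 0 others. In RNA from whole cultures, fewer cells that express a gene and less RNA per cell cannot be told apart.

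Most clustered protocadherins, like most genes of the array, gave signal in this beta cell line. Background was taken as the 95th percentile of the 1061 olfactory, vomeronasal and trace amine receptor genes, which stood at 5.80 for the vector cultures and 5.89 for the Meg3 cultures, with receptor medians of 4.21 in both. By this measure 46 of 57 members were above background among the vector cultures, 42 among the Meg3 cultures and 40 in both. Of all 20416 genes, 13776, 13376 and 13236 were above the same bounds. With the median of all genes as the bound, which splits all genes evenly, 32 and 26 members were above it. The 40 were 10 of 14 alpha, 18 of 22 beta and 12 of 21 gamma genes. Below background in both clones were 9 members: Pcdha6 and Pcdhac2 in the alpha cluster, Pcdhb21 in the beta cluster, and Pcdhga2, Pcdhga8, Pcdhga10, Pcdhga11, Pcdhga12 and Pcdhgb8 in the gamma cluster. Above it only in the vector clone were 6 members (Pcdhb5, Pcdhb9, Pcdhb15, Pcdhga1, Pcdhga5 and Pcdhga6), and only in the Meg3 clone 2 (Pcdha4 and Pcdha12). Of these 8, only Pcdhb5 and Pcdhb9 passed the test of the difference itself.

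The clones differed in the beta cluster, where 4 genes were lower in the Meg3 clone: Pcdhb2, Pcdhb3, Pcdhb5 and Pcdhb9, with log2 differences of -1.85, -1.44, -1.30 and -1.12. No member was called higher. At an adjusted p under 0.05 by limma, 4 of 57 members were therefore called lower, 7.02% against 0.465% of all genes, and 0 were called higher, against 0.201% of all genes. At an unadjusted p under 0.05, 13 members were lower, against 4.28% of all genes, and 3 were higher, against 2.68%. These are 22.8% and 5.26% of the members. The arrays of both clones did not overlap for 13 members that were lower in the Meg3 clone, 22.8% against 6.39% of all genes, and for 5 that were higher, 8.77% against 6.41%. The difference was negative for 39 of 57 members (68.4%, against 48.4% of all genes), with a median of -0.17 against 0.01 over all genes, and 31 members lay within 0.25 of 0. The 4 calls depended on single cultures: without vector culture 2 the count was 7, without Meg3 culture 1 it was 2, and without Meg3 culture 2 or Meg3 culture 3 it was 1, Pcdhb2. The counts over all genes moved too, from 95 lower to 271, 61, 17 and 14 in these fits. With both cultures that stood apart left out, 11 members were lower, of 819 genes in all, and 1, Pcdha4, was higher, of 292.

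**Figure D1:**
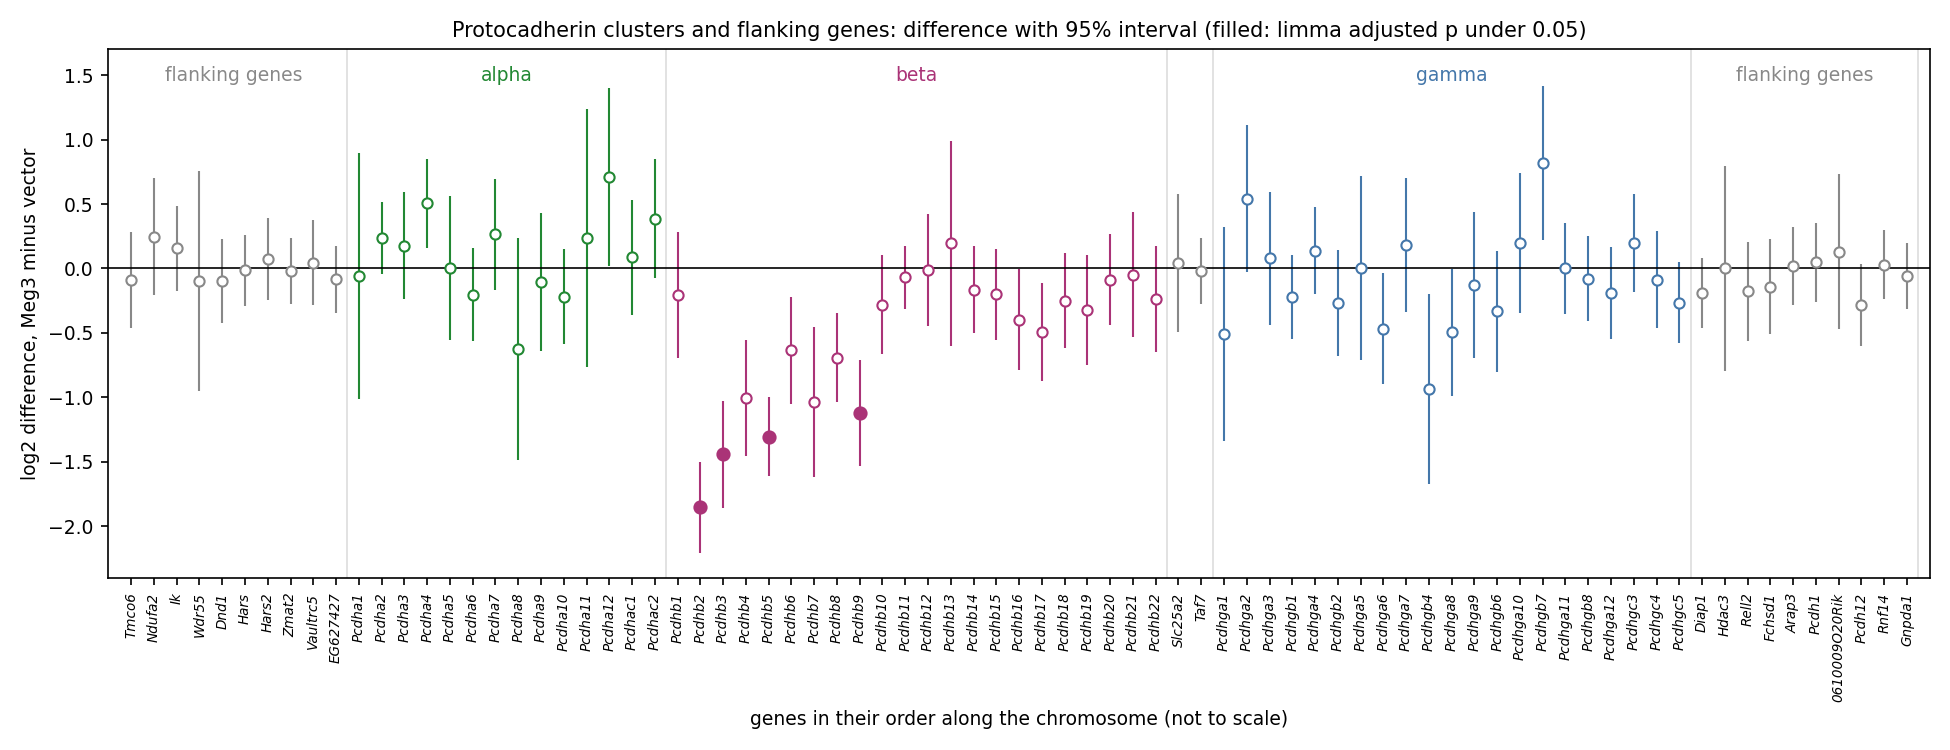
Difference in log2 level (Meg3 clone minus vector clone, vertical axis) of each of the 57 clustered protocadherins in gene order through the alpha, beta and gamma clusters (horizontal axis), with 95% intervals; filled points are the 4 genes called at an adjusted p under 0.05. The 8 genes from Pcdhb2 to Pcdhb9 all lie between -1.85 and -0.63, while the alpha and gamma genes lie on both sides of 0, from -0.93 to 0.82.

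In the beta cluster, 21 of 22 genes had a negative difference, with a median of -0.30 and a range of -1.85 to 0.20. The cultures of both clones did not overlap for 10 of the 22 (45.5%, against 6.39% of all genes), each time with the Meg3 clone lower, and 10 had an unadjusted p under 0.05. By gene order 8 of these 10 fell into a stretch, the neighbouring genes Pcdhb2 to Pcdhb9, which had a median difference of -1.08 and were all without overlap. The other 2, Pcdhb16 and Pcdhb17, lay outside it. Of those 8 genes, 6 were lower by a log2 value of 1 or more, a size that 0.446% of all genes reached and no other clustered protocadherin. The limits of the stretch were chosen after its values were seen, so it was given no test. Beta protocadherins lack the constant cytoplasmic part and can pair in cis with alpha and gamma isoforms at the cell surface.

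Pcdhb2 had the largest difference of all members. It read 7.92, 7.72 and 8.15 in vector cultures 1 to 3 and 6.03, 6.26 and 5.93 in Meg3 cultures 1 to 3. Every Meg3 culture was thus more than 1 log2 unit below every vector culture. The group levels were 7.93 ± 0.22 and 6.08 ± 0.17 (SD, n = 3 each), a difference of -1.85 (SE 0.15, adjusted p = 0.00254 by limma), or 3.61-fold lower. The Meg3 level lay close to the Meg3 background of 5.89, which limits how well this fold is known. Pcdhb2 was called in each of the 6 fits that left out 1 culture, with differences of -1.96 to -1.74. Its call was lost when the median of its 3 probe sets was taken in place of their mean (-1.66, adjusted p = 0.132).

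Pcdhb3, its neighbour, followed at 7.59, 7.87 and 8.10 in the vector cultures and 6.47, 6.14 and 6.63 in the Meg3 cultures. The groups were again apart, by nearly 1 log2 unit between their nearest cultures. The difference was -1.44 (SE 0.18, adjusted p = 0.0131 by limma), or 2.72-fold lower. It stayed between -1.58 and -1.31 when a culture was left out, but the call was lost without vector culture 3 (adjusted p = 0.0613) or without Meg3 culture 1 (0.0584), 2 (0.0780) or 3 (0.0638). The call was also lost with the replicate number as a block (adjusted p = 0.0511 by limma) and with the median of its probe sets (0.0581). All 6 probe sets of Pcdhb3 were lower in the Meg3 clone.

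Pcdhb5 read 7.09, 6.76 and 7.08 in the vector cultures and 5.63, 5.64 and 5.76 in the Meg3 cultures. It was above background in the vector clone and below it in every culture of the Meg3 clone. The difference was -1.30 (SE 0.13, adjusted p = 0.00663 by limma). As the Meg3 level was not above background, the fold has only a bound, at least 2.12-fold lower when set against the Meg3 background. Without Meg3 culture 2 or Meg3 culture 3 the adjusted p was 0.0560 and 0.0574, with differences of -1.29 and -1.34. It was also not called from its brightest probe set alone (-0.96, adjusted p = 0.0982) or from the median of its probe sets (-1.16, adjusted p = 0.105). With the replicate number as a block its adjusted p was 0.0511 by limma.

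Pcdhb9, at the far end of the stretch, was dim throughout: 5.94, 6.15 and 5.49 in the vector cultures and 4.64, 4.87 and 4.70 in the Meg3 cultures. Only vector cultures 1 and 2 were above the background of their group. The difference was -1.12 (SE 0.18, adjusted p = 0.0369 by limma). No fold is given, since the Meg3 level was below background and the vector level near it. Its 3 probe sets differed by -0.32, -0.82 and -2.22, so most of the mean came from the last of them, which was also the brightest. The call was lost without vector culture 1 (adjusted p = 0.147) and without Meg3 culture 1 (0.164), 2 (0.157) or 3 (0.236). It was also lost with the replicate number as a block (adjusted p = 0.103 by limma), the brightest probe set (0.0577) or the median of probe sets (0.261).

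The other 4 genes of the stretch did not pass the test over all genes. Pcdhb4, among the brightest beta genes, read 8.81, 8.16 and 8.88 against 7.67, 7.65 and 7.50, a difference of -1.01 (SE 0.20, adjusted p = 0.0879 by limma). Its groups did not overlap, and its lowest vector value was that of the culture that stood apart: without vector culture 2 the difference was -1.24 and the adjusted p 0.00189. Leaving out any other single culture gave an adjusted p of 0.235 to 0.455 by limma. Pcdhb6, Pcdhb7 and Pcdhb8 are given because they lie inside the stretch, and were chosen after their values were seen. Pcdhb6 read 8.19, 7.75 and 8.42 against 7.64, 7.41 and 7.41, a difference of -0.63 (SE 0.18, adjusted p = 0.299). Pcdhb7 read 6.64, 7.36 and 7.10 against 6.29, 6.21 and 5.50, a difference of -1.03 (SE 0.25, adjusted p = 0.196). Pcdhb8 read 8.35, 7.997 and 8.50 against 7.52, 7.65 and 7.60, a difference of -0.69 (SE 0.15, adjusted p = 0.127). In each of the 3 genes every Meg3 culture was below every vector culture.

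**Figure D2:**
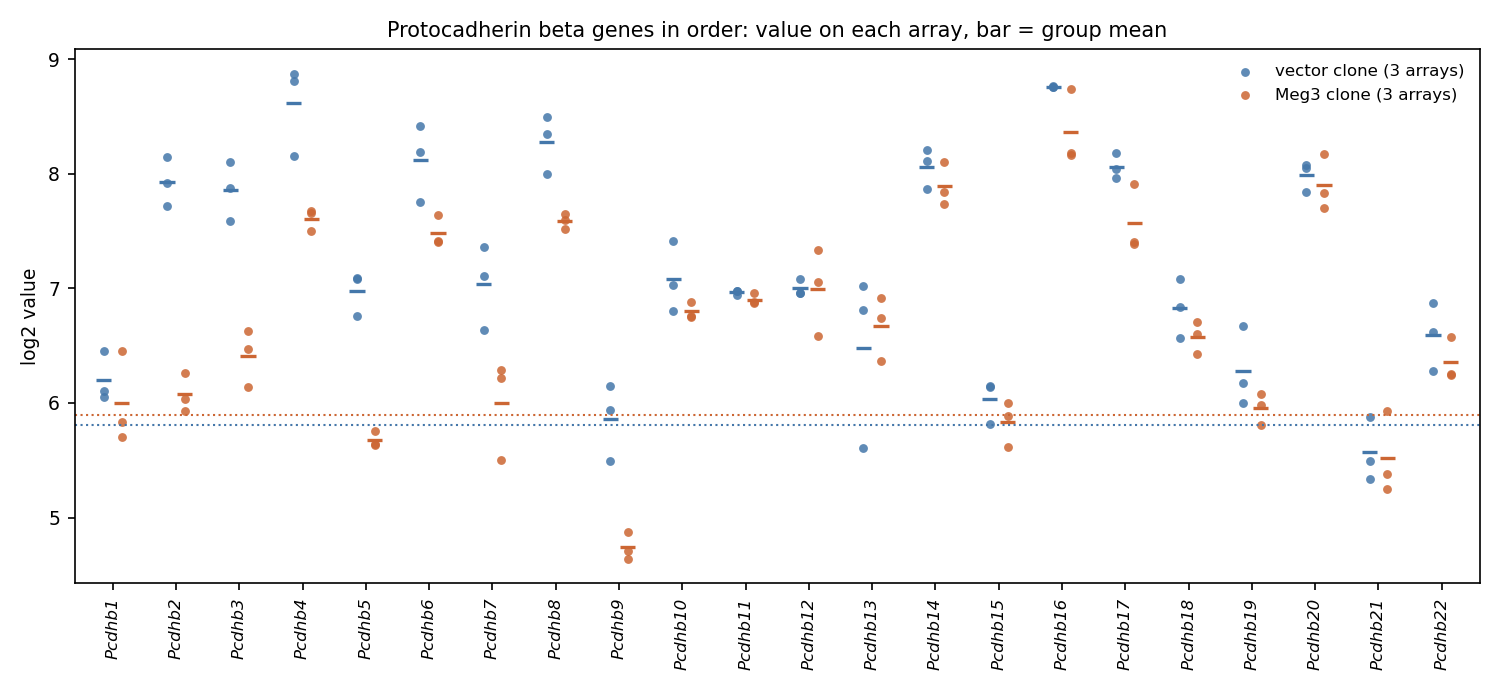
Log2 level (vertical axis) of the 22 beta protocadherins in gene order (horizontal axis) in each of 3 vector cultures and 3 Meg3 cultures, with the mean of each group; the dotted lines are the background of the vector clone (5.80) and of the Meg3 clone (5.89). The Meg3 cultures lie below all vector cultures from Pcdhb2 to Pcdhb9, while both groups mix in most genes from Pcdhb10 on.

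The beta protocadherins are paralogs with stretches of near-identical sequence, and a probe for one can also bind the RNA of another. The reference gene table keeps older names that number Pcdhb4, Pcdhb6 and Pcdhb8 in one series and Pcdhb5, Pcdhb7 and Pcdhb9 in another. Differences in the former were -1.01, -0.63 and -0.69, and in the latter -1.30, -1.03 and -1.12. Pcdhb10, Pcdhb11 and Pcdhb12 carry older names of the same series as Pcdhb4, and their differences were -0.28, -0.07 and -0.01, with overlapping groups. The value of Pcdhb11 rests on 9 probe sets of which 6 are numbered among genes of chromosome 15, and the 3 others gave -0.65 without overlap. How the fall of 4 genes is shared among such relatives was not tested.

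Single probe sets gave the same direction throughout the stretch. All 26 probe sets of Pcdhb2 to Pcdhb9 were lower in the Meg3 clone, by -2.30 to -0.32 with a median of -1.27. Without overlap were 21 of them (80.8%), against 5.41% of all probe sets. The stretch was drawn from the gene means of these same probe sets. Their share therefore follows in part from that choice and is no separate support. Of the 54 probe sets of Pcdhb10 to Pcdhb22, 40 were lower, 11 without overlap (20.4%), and 3 were higher without overlap. Those 3 were all probe sets of Pcdhb11 numbered outside the beta cluster, and without that gene's 6 such probe sets 0 were higher without overlap. Of the 20 alpha probe sets 7 were lower, and the groups did not overlap for 0 that were lower and 3 that were higher. Of the 42 gamma probe sets 22 were lower, and the groups did not overlap for 2 that were lower and 3 that were higher. Over all 241419 probe sets, the groups did not overlap for 13065 that were lower and 14676 that were higher. Tested singly by limma over the whole array, 0 of the 143 probe sets were called, with a lowest adjusted p of 0.144, where 0.000828% of all probe sets, 2 in number, were called.

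**Figure D3:**
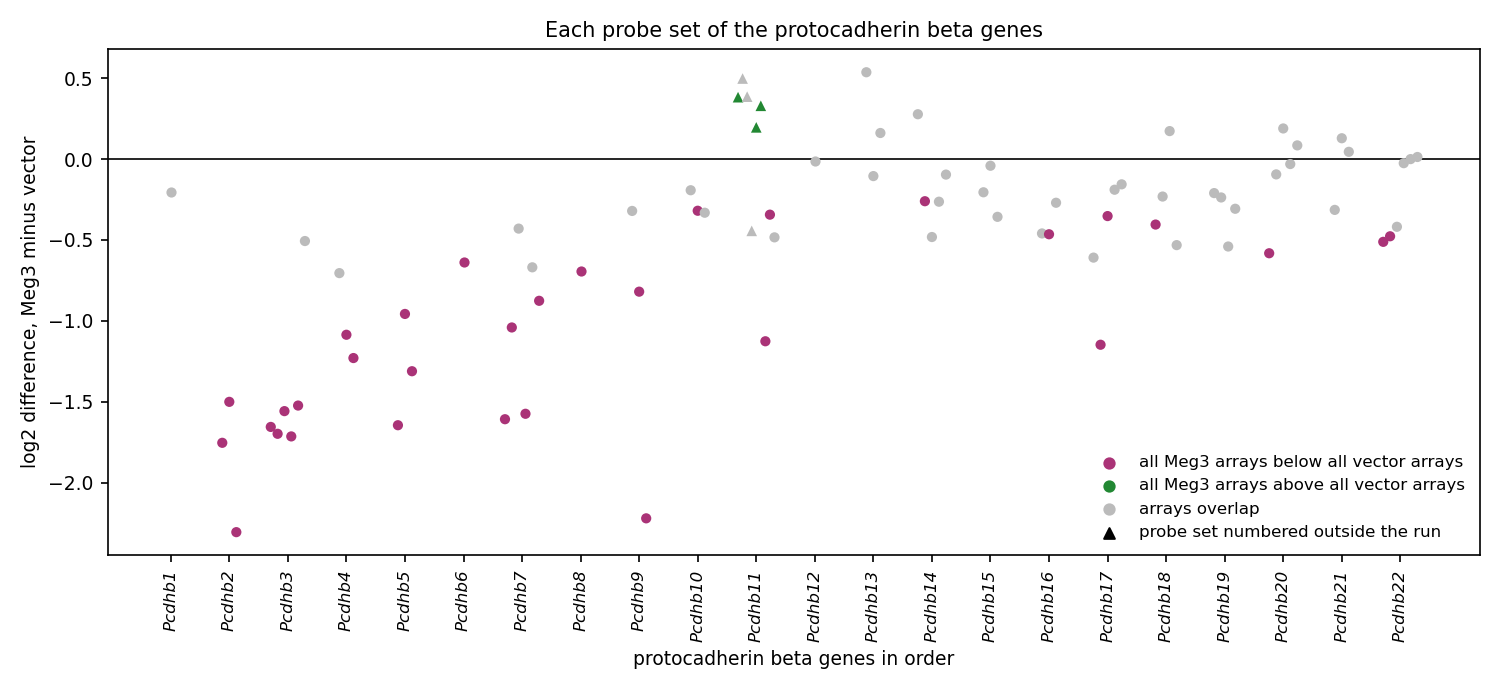
Difference in log2 level (Meg3 clone minus vector clone, vertical axis) of each of the 81 beta probe sets, grouped by gene in gene order (horizontal axis). All 26 probe sets of Pcdhb2 to Pcdhb9 lie below 0, between -2.30 and -0.32, and those of the later genes lie on both sides of 0.

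By gene means over all probe sets, the beta cluster was closer to 0 on either side of the stretch. Pcdhb1, the gene before it, read 6.05, 6.45 and 6.10 against 6.46, 5.84 and 5.71, a difference of -0.20 (SE 0.21) with overlapping groups. The 13 genes from Pcdhb10 to Pcdhb22 had a median of -0.20 and a range of -0.49 to 0.20, and 12 of the 13 were negative. In this range Pcdhb11 counts with all 9 of its probe sets, at -0.07. With only the 3 numbered inside the beta cluster it stood at -0.65, near the -0.63 of Pcdhb6 in the stretch. Pcdhb16 and Pcdhb17 were the 2 of these 13 whose groups did not overlap. Pcdhb16 read 8.77, 8.76 and 8.75 against 8.74, 8.18 and 8.16, a difference of -0.40 (SE 0.17, adjusted p = 0.700 by limma). Pcdhb17, named after its values were seen, read 7.96, 8.18 and 8.04 against 7.91, 7.39 and 7.40, a difference of -0.49 (SE 0.17, adjusted p = 0.464). In both genes Meg3 culture 1, an array that stood apart, lay next to the vector cultures. Pcdhb14, also among the brightest, differed by -0.17 with overlapping groups, and Pcdhb13 was the 1 beta gene with a positive difference, 0.20, where vector culture 2 at 5.61 lay far below the others. Its sign turned without vector culture 2 (-0.24), without both cultures that stood apart (-0.09) and with the median of its probe sets (-0.02).

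Pcdhb11 needs separate mention, and was chosen after its values were seen. The probe set numbers of the other members follow the gene order, but 6 of the 9 probe sets annotated to Pcdhb11 are numbered between those of Cyp2d13 and Cyp2d40, which lie on chromosome 15. With all 9 probe sets Pcdhb11 differed by -0.07 (SE 0.11). With the 3 probe sets numbered inside the beta cluster, an alternative added after the data were seen, it read 8.52, 8.63 and 8.59 in the vector cultures and 8.05, 8.17 and 7.56 in the Meg3 cultures. The groups then did not overlap, and the difference was -0.65 (SE 0.17, 95% interval -1.04 to -0.26, adjusted p = 0.231 by limma). The 6 other probe sets differed by 0.22 on average.

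The alpha cluster, whose isoforms share constant exons, had 0 genes called in either direction. At an unadjusted p under 0.05, 0 were lower and 2 higher (all genes 4.28% and 2.68%). Of its 14 genes 5 had a negative and 9 a positive difference, with a median of 0.13 and a range of -0.63 to 0.71, and the groups did not overlap for 1 gene that was lower (7.14%, against 6.39% of all genes) and 3 that were higher (21.4%, against 6.41%). Pcdha4 read 5.66, 5.91 and 5.80 in the vector cultures and 6.53, 6.07 and 6.28 in the Meg3 cultures, a difference of 0.50 (SE 0.15, adjusted p = 0.329 by limma). Pcdha12 read 5.71, 4.82 and 6.17 against 6.25, 6.20 and 6.36, a difference of 0.71 (SE 0.30, adjusted p = 0.692). In both genes the groups were apart, but in Pcdha12 only narrowly and with vector culture 2 far below its own group. Pcdha8 had the largest negative difference, -0.63 (SE 0.37), with Meg3 culture 1 at 5.28. Meg3 culture 2, at 6.52, lay just below the vector cultures (6.59 to 7.05), and Meg3 culture 3, at 6.92, lay among them. Without Meg3 culture 1 the difference was -0.15. The remaining named alpha genes were Pcdha2 (0.24), Pcdha7 (0.26), Pcdha10 (-0.22) and Pcdha6 (-0.20), of which Pcdha2 and Pcdha6 had groups without overlap.

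A reading of alpha transcripts as a whole came from 6 probe sets that carry the symbols of all 14 alpha genes and so belong to no single member. Constant exons are shared by all alpha genes, but the position of these probe sets in the genes was not checked. Their mean was 8.99, 8.52 and 9.14 in the vector cultures and 9.02, 9.23 and 8.999 in the Meg3 cultures. The groups overlapped, at 8.88 ± 0.33 and 9.08 ± 0.13 (SD, n = 3 each). The 6 probe sets differed by 0.04 to 0.62, and 0 were called. No probe set carried the symbols of several gamma genes in the annotation.

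The gamma cluster, whose A-type and B-type variable exons are intermingled, also had 0 genes called. At an unadjusted p under 0.05 by limma, 3 gamma genes were lower and 1 higher (all genes 4.28% and 2.68%). Of its 21 genes 13 had a negative and 8 a positive difference, with a median of -0.09, and the groups did not overlap for 2 in each direction, 9.52% each against 6.39% and 6.41% of all genes. The 12 A-type genes had a median of 0.00. The 6 B-type genes had a median of -0.24, with 5 of them negative, but the largest differences of the cluster in both directions were among them. Pcdhgb4 read 8.15, 8.19 and 7.64 against 7.54, 6.29 and 7.36, a difference of -0.93 (SE 0.32, adjusted p = 0.471). Pcdhgb7 read 8.54, 7.61 and 8.41 against 8.85, 9.36 and 8.80, a difference of 0.82 (SE 0.26, adjusted p = 0.397). The groups did not overlap in either gene, but each was read by 1 probe set and had a culture well away from its own group. Pcdhgb1, another bright gamma gene, differed by -0.22 with overlapping groups. Pcdhga1 (-0.51), Pcdhga2 (0.54) and Pcdhga8 (-0.49) had the largest differences among the A-type genes, and the latter 2 were below background in both clones. All 3 moved without vector culture 2, to -0.95, 0.24 and -0.27, and of the alternatives run, Pcdhga1 was called only with both cultures that stood apart left out (-1.15, adjusted p = 0.000527 by limma).

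**Figure D4:**
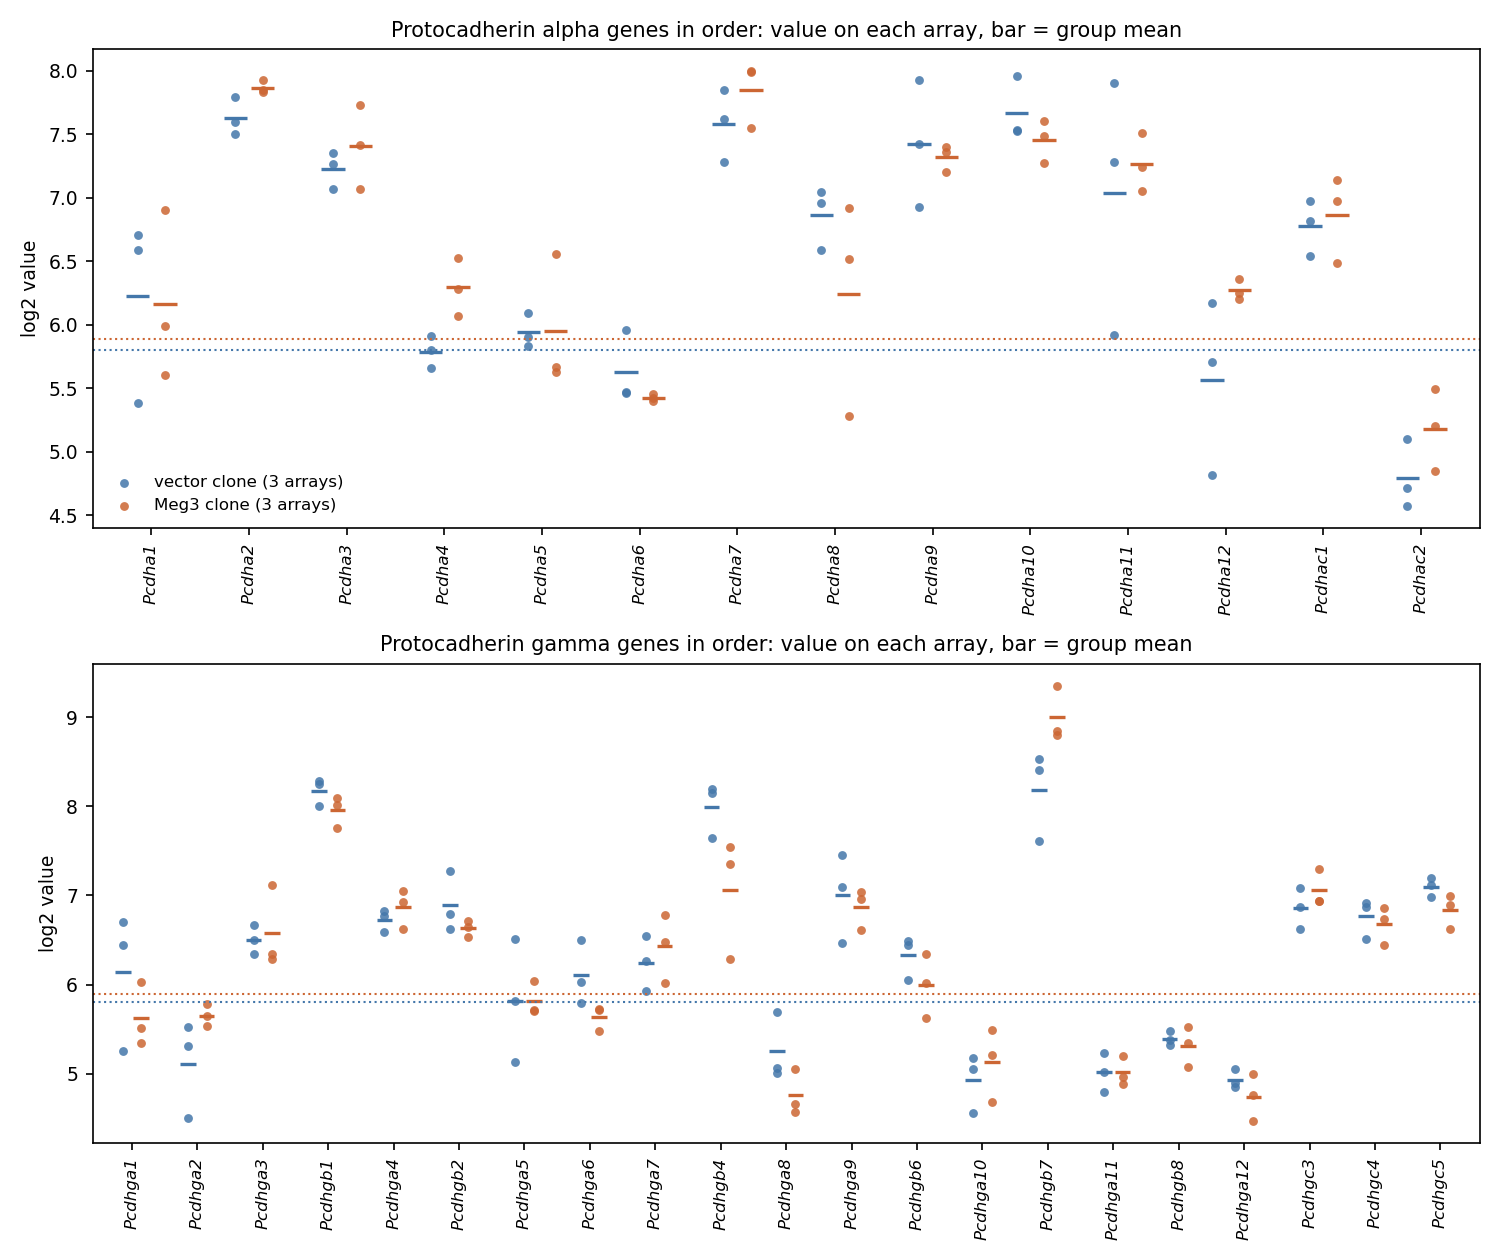
Log2 level (vertical axis) of the alpha and gamma protocadherins in gene order (horizontal axis) in each of 3 vector cultures and 3 Meg3 cultures, with group means and the background of the vector clone (5.80) and of the Meg3 clone (5.89) as dotted lines. Both groups overlap in most genes, and the largest gaps are those of Pcdhgb4 (-0.93) and Pcdhgb7 (0.82).

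The C-type isoforms, which neurons tend to express constitutively, had a median difference of 0.09 over 5 genes, and 0 were called or had an unadjusted p under 0.05. Pcdhac1 read 6.54, 6.82 and 6.98 against 7.14, 6.98 and 6.49, a difference of 0.09 (SE 0.19). Pcdhgc3 read 7.09, 6.87 and 6.62 against 6.94, 7.30 and 6.94, a difference of 0.20 (SE 0.16). Pcdhgc4 differed by -0.09 (SE 0.16) and Pcdhgc5 by -0.26 (SE 0.14). These 4 were above background in both clones, while Pcdhac2 was below it in both, at 4.79 ± 0.27 and 5.18 ± 0.32 (SD, n = 3 each). Groups overlapped in all 5.

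The genes around the clusters were close to 0. Of the 22 nearest measured genes, 10 before the alpha cluster, 10 after the gamma cluster and 2 between the beta and gamma clusters, 0 were called by limma and 0 had an unadjusted p under 0.05. Their median was -0.02, and they ranged from -0.29 (Pcdh12) to 0.25 (Ndufa2). Taf7, a general transcription factor subunit between the beta and gamma clusters, read 7.02 ± 0.09 and 7.003 ± 0.04 (SD, n = 3 each), a difference of -0.02 (SE 0.11).

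The protocadherins that lie outside the clusters, adhesion proteins with their own genes, had 0 of 13 genes called by limma. Of the 13, 4 had a negative and 9 a positive difference, with a median of 0.06, and at an unadjusted p under 0.05 1 was lower and 4 higher (all genes 4.28% and 2.68%). Pcdh10 read 8.61, 8.27 and 8.58 in the vector cultures and 9.16, 9.53 and 9.48 in the Meg3 cultures, a difference of 0.90 (SE 0.15, adjusted p = 0.0508). Pcdh7, named after its values were seen, differed by 0.71 (SE 0.15, adjusted p = 0.120), also without overlap. Cdhr1 (Pcdh21 on the array), the brightest of the list, differed by -0.08 (SE 0.38).

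Genes known to set the promoter choice and chromatin of the clusters gave 0 calls among the 22 of 24 measured, with 11 negative and 11 positive differences and a median of 0.01. At an unadjusted p under 0.05 by limma, 1 was lower, Stag1, a cohesin subunit named after its values were seen (-0.52, SE 0.20), and 0 were higher. Ctcf, the insulator protein at protocadherin promoters, differed by -0.05 (SE 0.13). The cohesin subunits Rad21 and Smc3 differed by 0.06 (SE 0.11) and 0.13 (SE 0.11). Smchd1, a repressor of these clusters, differed by -0.01 (SE 0.19), and Dnmt3b, a methyltransferase of their promoters, by 0.09 (SE 0.17). The other 2 listed genes were not analysed here.

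Partners in protocadherin signalling and cleavage, such as focal adhesion kinases, the WAVE complex and the secretases, gave 0 calls among the 22 of 23 measured, and 0 had an unadjusted p under 0.05. Their median was -0.01, with 11 negative and 11 positive. Psenen, a gamma-secretase subunit, differed by -0.18 (SE 0.17), and Nckap1, a subunit of the WAVE complex, by 0.04 (SE 0.16).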

How the data were processed

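RNA was measured on 6 arrays, 3 of vector cultures and 3 of Meg3 cultures, named by the replicate numbers of their titles. Per the labels, the authors deposited RMA log2 values per probe set; Partek is also named in the submitters' processing notes, and versions were not given in the sources used here. Intensities were used as deposited, and the number of arrays limits precision. Of 241419 probe sets, 212097 had 1 symbol in the platform's annotation, 4475 several and 24847 none; the 20416 symbols were matched to the reference gene table (17621 by symbol, 2742 by an older name, 53 not), which gave gene order. Gene values were means of log2 over probe sets with 1 symbol. Differences were tested with limma 3.58.1 (lmFit, eBayes; R 4.3.3), adjusted by Benjamini-Hochberg over all genes, and called at an adjusted p under 0.05; the fit was tested on simulated data. An exact permutation test of 3 against 3 cannot go below p = 0.1. The members and lists were chosen with earlier results of these data known. Members named were those called, the 3 with the largest difference each way and the 3 brightest of each cluster, Pcdhb2 and the C-type isoforms. Other members, among them Pcdhb1, Pcdhb10 and Pcdhb12, were named after their values were seen. Of the lists, called genes or else the 2 brightest were named. Alternatives were a replicate block, centring, quantile normalization, a filter on dim genes, the brightest or median probe set, trended robust eBayes, another background and leaving out cultures.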

Additional observations from a re-analysis of the deposited data

How the results depend on the processing

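The count of 4 members called lower became 1 with the replicate number as a block and 2 with the brightest probe set of each gene. With the median of each gene's probe sets it became 0, where 42 of all genes were called lower. Without vector culture 2 and Meg3 culture 1 together it became 11, and leaving out 1 culture gave 1 to 7. The count of 0 called higher became 1, Pcdha4, without those 2 cultures together, and stayed at 0 in the other alternatives. Centring, repeated quantile normalization, leaving out the dimmest 30% of genes and trended robust eBayes gave 3 to 5 called lower. The 42 members above background in the Meg3 clone became 26 with the median of all genes as the bound. Pcdhb2 was called lower in 13 of 14 alternatives, Pcdhb5 in 9, Pcdhb3 in 8 and Pcdhb9 in 6 of 13, the filter on dim genes having removed it. All 8 genes from Pcdhb2 to Pcdhb9 had a negative difference in every alternative run on them. Deviations of same-numbered cultures correlated at -0.61, -0.63 and 0.28, and those of differently numbered cultures at -0.54 to 0.65. The highest value was that of vector culture 2 with Meg3 culture 1, the cultures that stood apart. Whether the replicate numbers pair the cultures was not tested. The 9 members below background in both clones had little signal above it in which a difference could show. The cause of each change in count was not tested.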

Other observations

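The gene order of the whole array was scanned in windows of 8 neighbouring measured genes, a size chosen after the Pcdhb2 to Pcdhb9 stretch had been seen, so the scan is a description with no test. Of 20141 windows, 0 had a lower median difference than the stretch itself (-1.08), whose limits were also chosen from these values. It was the 1 window in which all 8 genes lay at or below -0.63. That bound was the value of its own least negative gene, so the stretch met it by construction. Outside the protocadherins, the lowest window ran from Zfp457 to Zfp58, neighbouring zinc finger genes, with a median of -0.57, and the highest window had a median of 0.74. Within the vector clone, the median deviation of the 8 genes Pcdhb2 to Pcdhb9 from the mean of the other 2 cultures of their clone was -0.32 in vector culture 2 and 0.33 in vector culture 3, against 0.11 in vector culture 1, while the Meg3 cultures lay between -0.08 and 0.08.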
